A study of Mus musculus with 3 samples.

Results

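The genes described here are 10 genes of cell division in the mandibular condyle of the mouse. They are the proliferation marker *Mki67*, the topoisomerase gene *Top2a*, the cyclin genes *Ccna2*, *Ccnb1* and *Ccnb2*, the kinase genes *Cdk1*, *Plk1*, *Aurka* and *Aurkb*, and *Cdc20*, which encodes an activator of the anaphase-promoting complex. They were chosen by gene symbol, with earlier results of these data known. All 10 were found among the 26970 genes of the deposited table, each in 1 row. RNA sequencing was done on condyles, with cartilage and subchondral bone left joined, of 4-month-old mice of 3 genotypes, WT (+/+), *Dspp*+/- and *Dspp*-/-. *Dspp* encodes dentin sialophosphoprotein, an extracellular matrix protein, and the null allele is a global knockout on the C57BL/6 background. Each genotype has 1 library, made from the pooled tissue of 3 animals for WT and for *Dspp*+/-, while the number of animals behind the *Dspp*-/- library is not given in the sources used here. The labels also speak of triplicate samples with a library each, but the table holds 1 value per gene and genotype, which was taken as 1 library. There are therefore no replicates and no test between genotypes, and every difference below is a difference between single libraries.

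The values are FPKM, counts of sequenced fragments scaled to the length of the gene and to the fragments of the library, so that levels can be compared between genes. Multiplied by gene length they were whole multiples of 1 constant per library, which gave depths of 20241577 (WT), 23613619 (*Dspp*+/-) and 22253159 (*Dspp*-/-) fragments. Intervals given in brackets are 95% intervals from these fragments. They hold the error of counting fragments and no difference between mice. The marker genes of the condyle were present in all 3 libraries, with *Col2a1*, *Acan* and *Sox9* of cartilage and *Bglap*, *Sp7* and *Runx2* of bone at 5 FPKM or more, and the libraries also held skeletal muscle RNA. Of all FPKM, 25.02% belonged to mitochondrially encoded genes in WT and 36.9% and 37.3% in *Dspp*+/- and *Dspp*-/-. Counted in fragments, without scaling to gene length, the shares were 9.58%, 16.5% and 16.1%. *Xist*, the RNA of the inactive X chromosome of female cells, was at 0.00551 FPKM in WT and at 28.5 and 26.5 FPKM in the mutant libraries, and *Ddx3y* of the Y chromosome at 22.5, 11.1 and 15.1 FPKM, so the sex of the pooled animals and the genotype cannot be told apart. Since *Dspp* was not analysed here, the labels have no check by the targeted gene.

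A dividing cell passes from DNA synthesis to mitosis when cyclin A and then cyclin B accumulate and switch on the kinase CDK1. The Polo kinase PLK1 and the Aurora kinases then build the spindle and attach the chromosomes, and CDC20 lets the anaphase-promoting complex destroy the cyclins so that the cell can divide. These genes are transcribed late in the cycle and are nearly silent in resting cells. Their shared control is known to run through the CHR element, bound by the MuvB complex, and through CCAAT boxes, bound by NF-Y, close to the start of transcription. In a condyle, dividing cells are found in the layer of precursor cells under the articular surface and in the marrow of the subchondral bone.

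Promoter windows, 250 bases before to 50 after a start of transcription, were held by the RefSeq table of GRCm38.p6 for 8 of the 10 genes, and *Ccna2* and *Aurkb* were not matched. Motifs were searched on both strands. The CHR letters TTTGAA, on either strand, were in 7 of the 8 windows, against 17.9% of all 32851 windows of that length, and the CCAAT letters, on either strand, were in 8 of 8, against 37.4%. Both motifs stood together in 7 of 8 windows and in 6.95% of all windows. In *Cdk1*, *Top2a* and *Cdc20* a CHR and a CCAAT box began 9 or 10 bases apart, and no CHR overlapped a CCAAT box. The CHR nearest the start began 15 bases before it in *Cdk1*, 18 before in *Cdc20* and 23 before in *Top2a*, and 4, 30 and 32 bases after it in *Ccnb2*, *Plk1* and *Aurka*. In *Mki67* it began 98 bases before the start. *Ccnb1* was the 1 gene without TTTGAA in its window, and it held 2 CCAAT boxes 32 bases apart, the same spacing as the closest pairs in *Cdk1* and *Aurka*. The variant TTCGAA was found in *Top2a* alone, and neither of the E2F spellings TTTGGCGC and TTTCCCGC, on either strand, occurred in the 8 windows. Other spellings of E2F sites were not searched for, so the windows are not shown to lack such sites. A match of letters is a description and not a site shown to be bound.

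The windows of 5 genes are printed to show the shared layout, with CHR and CCAAT letters on either strand in capitals. They are *Ccnb1*, without TTTGAA, *Ccnb2* and *Cdk1*, with higher values in *Dspp*-/- than in *Dspp*+/-, and *Plk1* and *Cdc20*, with lower ones. For *Cdk1* the counting interval of the fold between the mutant libraries holds 1.
Ccnb1, chr13:100786437-100786736 (- strand): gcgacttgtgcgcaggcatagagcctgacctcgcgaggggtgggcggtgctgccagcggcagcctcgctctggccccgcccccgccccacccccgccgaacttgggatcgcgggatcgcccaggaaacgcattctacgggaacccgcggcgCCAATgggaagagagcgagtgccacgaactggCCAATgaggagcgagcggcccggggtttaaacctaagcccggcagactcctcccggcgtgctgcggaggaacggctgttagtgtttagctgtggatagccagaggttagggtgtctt
Ccnb2, chr9:70421505-70421804 (- strand): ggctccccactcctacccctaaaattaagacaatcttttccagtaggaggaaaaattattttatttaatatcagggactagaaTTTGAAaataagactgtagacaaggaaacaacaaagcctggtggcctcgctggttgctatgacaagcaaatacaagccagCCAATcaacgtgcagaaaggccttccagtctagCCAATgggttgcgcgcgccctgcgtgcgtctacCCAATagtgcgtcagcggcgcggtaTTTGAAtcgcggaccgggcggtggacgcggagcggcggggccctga
Cdk1, chr10:69352863-69353162 (- strand): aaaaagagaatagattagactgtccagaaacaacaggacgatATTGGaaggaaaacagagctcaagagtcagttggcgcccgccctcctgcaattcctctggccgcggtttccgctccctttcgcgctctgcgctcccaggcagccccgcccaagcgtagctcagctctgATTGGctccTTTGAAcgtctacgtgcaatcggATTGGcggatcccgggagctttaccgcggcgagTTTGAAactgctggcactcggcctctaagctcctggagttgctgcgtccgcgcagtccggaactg
Plk1, chr7:122159185-122159484 (+ strand): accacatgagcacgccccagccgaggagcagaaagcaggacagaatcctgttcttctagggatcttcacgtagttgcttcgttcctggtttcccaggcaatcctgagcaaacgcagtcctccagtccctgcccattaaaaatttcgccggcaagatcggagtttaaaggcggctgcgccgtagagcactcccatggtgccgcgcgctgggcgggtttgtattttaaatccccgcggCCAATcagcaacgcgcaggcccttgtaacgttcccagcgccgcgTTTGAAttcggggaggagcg
Cdc20, chr4:118437294-118437593 (- strand): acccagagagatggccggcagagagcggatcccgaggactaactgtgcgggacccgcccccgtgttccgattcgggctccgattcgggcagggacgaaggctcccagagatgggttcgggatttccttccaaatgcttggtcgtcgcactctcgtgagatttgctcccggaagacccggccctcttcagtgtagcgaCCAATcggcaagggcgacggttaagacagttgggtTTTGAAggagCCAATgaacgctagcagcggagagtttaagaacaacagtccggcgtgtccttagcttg

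All 10 genes were more abundant in both mutant libraries than in WT. Summed over the 10 genes, the level was 24.9 FPKM in WT against 92.9 in *Dspp*+/- and 95.8 in *Dspp*-/-, a ratio to WT of 3.73 and 3.84. The WT library was the lowest for every gene, and no counting interval of a WT level reached that of a mutant library. In tissue RNA, more cells of a type and more RNA per cell cannot be told apart.

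**Figure D1:**
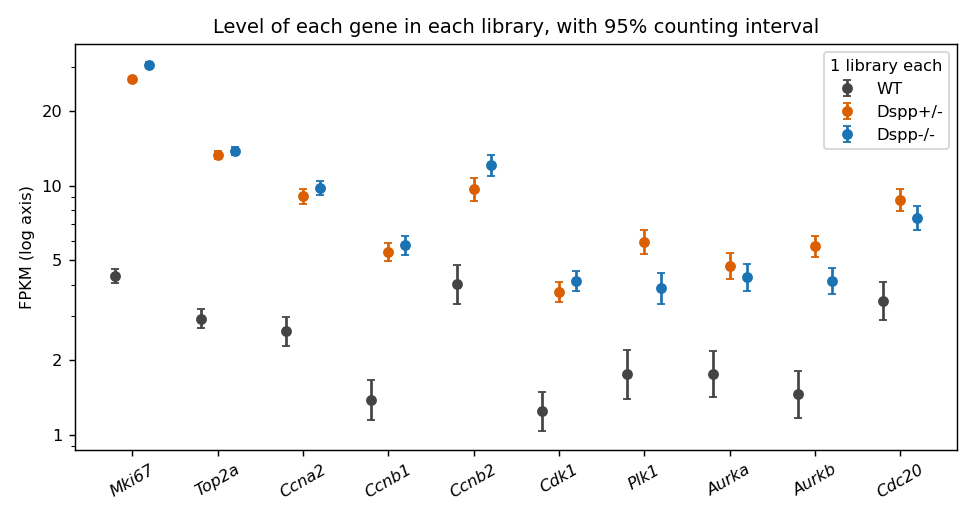
FPKM of the 10 genes in the WT, *Dspp*+/- and *Dspp*-/- libraries on a log axis, 1 point per library, with bars for the 95% counting interval. WT lies lowest for every gene, from 1.24 to 4.34 FPKM, and *Mki67* is the most abundant gene in all 3 libraries.

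*Mki67* encodes Ki-67, which coats mitotic chromosomes and is absent from resting cells. On chromosome 7 from 135291513 to 135318090 of the deposited table, whose positions have no named build and cannot be set beside those of the windows above, it had 4.34 FPKM in WT (883 fragments) against 26.7 in *Dspp*+/- (6346 fragments) and 30.5 in *Dspp*-/- (6823 fragments). Its fold against WT, 6.16 (5.74 to 6.62) in *Dspp*+/- with 7.03 (6.55 to 7.55) in *Dspp*-/-, was the largest of the 10 genes in both. *Top2a* encodes topoisomerase II alpha, which untangles DNA before chromosomes separate. On chromosome 11 from 98883769 to 98915015, it had 2.92 FPKM in WT against 13.2 in *Dspp*+/- and 13.8 in *Dspp*-/-. Its fold was second in size, 4.53 (4.13 to 4.98) and 4.73 (4.31 to 5.20). These intervals overlap those of *Ccnb1* in both mutant libraries and that of *Ccna2* in *Dspp*-/-. *Mki67* and *Top2a* are also the longest of the 10 genes, with 10061 and 9013 bases of merged exons, and rest on the most fragments. The ratio of *Mki67* to *Top2a* was 1.48 (1.33 to 1.66) in WT but 2.02 (1.93 to 2.11) in *Dspp*+/- with 2.21 (2.11 to 2.31) in *Dspp*-/-. The WT interval lay apart from both others. This ratio was 1 of 8 computed between pairs of the 10 genes. The ratios of *Ccnb1* to *Cdk1*, *Plk1* to *Aurka* and *Ccna2* to *Ccnb1* are not given below. Their WT intervals overlap those of both mutant libraries.

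Among the cyclins, *Ccnb2* differed least from WT, and *Ccna2* and *Ccnb1* had folds with overlapping intervals. Cyclin A2 acts in S phase and at the entry to mitosis, and its gene *Ccna2*, on chromosome 3 from 36619014 to 36626299, was at 2.60 FPKM in WT against 9.03 in *Dspp*+/- and 9.81 in *Dspp*-/-. The fold of *Ccna2* was 3.47 (2.99 to 4.05) and 3.77 (3.24 to 4.40). Cyclin B1 is the main partner of CDK1 in mitosis. *Ccnb1*, on chromosome 13 from 100915158 to 100923078, was at 1.38 FPKM in WT against 5.41 in *Dspp*+/- and 5.75 in *Dspp*-/-, a fold of 3.92 (3.20 to 4.82) and 4.16 (3.40 to 5.12). *Ccnb2*, on chromosome 9 from 70314974 to 70328829, encodes the Golgi-associated B cyclin. It had 4.03 FPKM in WT against 9.68 in *Dspp*+/- and 12.1 in *Dspp*-/-, a fold of 2.40 (1.95 to 2.97) and 3.00 (2.45 to 3.69). The ratio of *Ccnb2* to *Ccnb1* was thus 2.92 (2.25 to 3.78) in WT and 1.79 (1.56 to 2.05) and 2.10 (1.84 to 2.39) in the mutant libraries, where the interval of *Dspp*+/- does not reach that of WT. Of the 100-base sequences of *Ccnb1*, 14.9% also occur in other genes, among them the pseudogene *Ccnb1-ps*, and 12.5% of the exon length of *Ccna2* overlaps *Exosc9* on the other strand, so their fragments could have been split or shared.

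The folds of the mitotic kinases against WT were below those of *Mki67* and *Top2a*. In *Dspp*+/-, however, the intervals of *Plk1* and *Aurkb* overlap that of *Top2a*. *Cdk1* encodes the catalytic partner of cyclins A and B. On chromosome 10 from 69170976 to 69188768, it was the least abundant of the 10 genes in WT with 1.24 FPKM, and had 3.73 FPKM in *Dspp*+/- and 4.14 in *Dspp*-/-. The fold of *Cdk1* was 3.01 (2.46 to 3.70) and 3.34 (2.73 to 4.10). *Plk1*, on chromosome 7 from 121758662 to 121769096, encodes the Polo kinase of mitotic entry and spindle building. It had 1.75 FPKM in WT (78 fragments) against 5.95 in *Dspp*+/- (309 fragments) and 3.86 in *Dspp*-/- (189 fragments). Its fold was 3.40 (2.64 to 4.41) in the *Dspp*+/- library but 2.20 (1.68 to 2.91) in *Dspp*-/-, so the heterozygous library held the most *Plk1*.

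Both Aurora kinase genes were higher in the mutant libraries than in WT. *Aurka*, on chromosome 2 from 172198110 to 172212455, encodes the Aurora kinase of centrosomes and spindle poles, and had 1.76 FPKM in WT against 4.77 in *Dspp*+/- and 4.28 in *Dspp*-/-. *Aurkb*, on chromosome 11 from 68936473 to 68942490, encodes the Aurora kinase of the chromosomal passenger complex at centromeres, and had 1.46 FPKM in WT against 5.69 in *Dspp*+/- and 4.13 in *Dspp*-/-. The fold against WT in *Dspp*+/- was 2.71 (2.13 to 3.48) for *Aurka* and 3.90 (3.09 to 4.98) for *Aurkb*, and in *Dspp*-/- 2.44 (1.90 to 3.14) and 2.83 (2.22 to 3.65). The ratio of *Aurka* to *Aurkb* was 1.20 (0.887 to 1.64) in WT but 0.838 (0.717 to 0.978) in *Dspp*+/- and 1.04 (0.867 to 1.24) in *Dspp*-/-, and these intervals overlap between all 3 libraries. *Cdc20*, on chromosome 4 from 118290098 to 118294549, closes the sequence of mitosis as activator of the anaphase-promoting complex. It had 3.44 FPKM in WT against 8.73 in *Dspp*+/- and 7.43 in *Dspp*-/-, a fold of 2.54 (2.08 to 3.12) and 2.16 (1.76 to 2.67). Against *Ccnb1*, whose product its complex destroys, the ratio of *Cdc20* was 2.49 (1.92 to 3.22) in WT. It was 1.61 (1.41 to 1.84) and 1.29 (1.12 to 1.49) in the mutant libraries, both below the WT interval. The transcripts of *Cdc20* and *Ccnb1* differ in GC content, 55.6% against 44.2%, and differences from WT went with GC content, as given below.

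**Figure D2:**
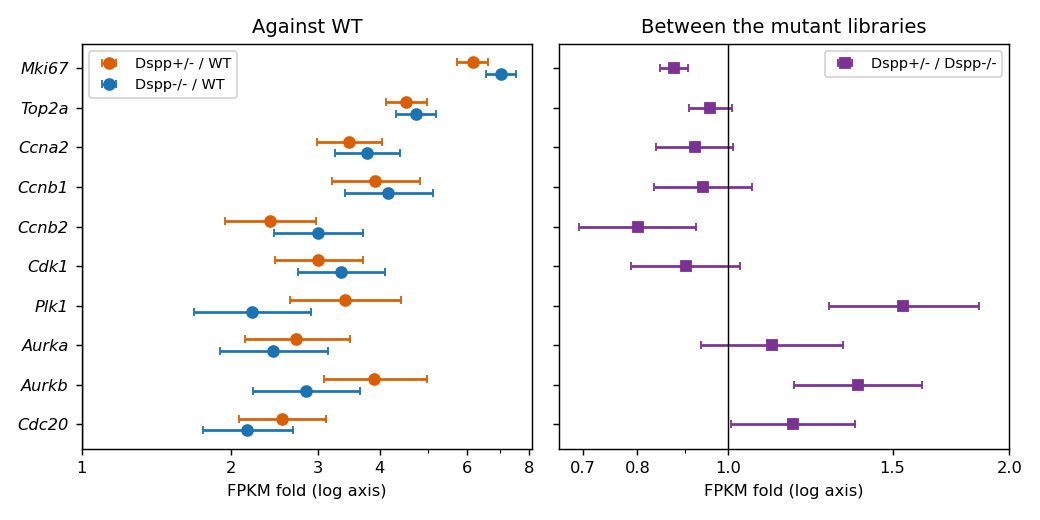
FPKM fold on a log axis for each gene, against WT on the left and *Dspp*+/- against *Dspp*-/- on the right, with bars for the 95% counting interval and a line at 1. All 20 folds against WT lie above 1, and between the mutant libraries 4 genes lie above 1 and 6 below.

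The order of levels also differed between the libraries. In WT, 8 of the 9 neighbours in that order had overlapping counting intervals, and the 1 step was between *Ccna2* and *Aurka*. In *Dspp*+/- 5 of 9 neighbours overlapped and in *Dspp*-/- 4 of 9. The mutant libraries held more fragments of the 10 genes, 12731 and 12901 against 2383 in WT, which narrows their intervals. *Mki67* made up 17.4% of the summed FPKM of the 10 genes in WT, and 28.7% in *Dspp*+/- and 31.8% in *Dspp*-/-. The share of *Cdc20* went the other way, from 13.8% in WT to 9.39% and 7.76%. *Cdk1* stood last in WT and in *Dspp*+/-, and *Plk1* stood last in *Dspp*-/-.

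Set against all genes, the differences of the 10 genes were large, but the genes were chosen with earlier results of these data known. For counts over genes, a difference was taken on the scale of log2(FPKM + 1), which understates the change of low genes, over the 13026 genes averaging 1 FPKM or more in the 3 libraries. All 10 genes were in that set and above 1 FPKM in WT too. On this scale 10 of 10 genes were at least 2-fold higher in *Dspp*+/- than in WT, where 4.88% of all genes were. In *Dspp*-/- it was 7 of 10, against 4.05% of all genes. None of the 10 genes was at least 2-fold lower, against 2.86% of all genes in *Dspp*+/- and 1.37% in *Dspp*-/-. Scaled on housekeeping genes, all genes split the other way in *Dspp*+/-, 3.01% higher and 5.46% lower, and 6 of the 10 genes were past 2-fold higher in each mutant library. The 3 genes short of the threshold in *Dspp*-/- were *Plk1* (0.82), *Cdc20* (0.93) and *Aurka* (0.94), whose plain FPKM folds were over 2. The median log2 difference of the 10 genes was 1.38 in *Dspp*+/- and 1.29 in *Dspp*-/-, where the median over all genes tested was 0.058 and 0.0070. Of all genes tested, 95.8% to 99.5% had a smaller difference in *Dspp*+/- than the respective member of the 10, and 94.5% to 99.7% in *Dspp*-/-. The counting interval of the fold lay above 1 for 10 of 10 genes in both comparisons, but it did so for 39.4% and 34.1% of all genes too, and it lay below 1 for none of the 10 and for 28.4% and 33.5% of all genes. Both comparisons use the same WT library, so they are not independent of each other. With a pseudocount of 5 in place of 1, 2 of the 10 genes were past 2-fold in each mutant library.

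Between the mutant libraries the differences were small and went both ways. The 6 genes for Ki-67, topoisomerase, the cyclins and CDK1 had lower values in *Dspp*+/- than in *Dspp*-/-, and the 4 genes *Plk1*, *Aurka*, *Aurkb* and *Cdc20* had higher ones. *Plk1* had a fold of 1.54 (1.28 to 1.86), *Aurkb* of 1.38 (1.18 to 1.61), *Cdc20* of 1.17 (1.01 to 1.37) and *Aurka* of 1.11 (0.935 to 1.33). On the other side *Ccnb2* had a fold of 0.801 (0.692 to 0.925) and *Mki67* of 0.877 (0.847 to 0.907), while the intervals of *Top2a*, *Ccna2*, *Ccnb1* and *Cdk1* hold 1. The ratio of *Plk1* to *Cdk1* was 1.41 (1.05 to 1.89) in WT, with 1.59 (1.37 to 1.85) in *Dspp*+/- and 0.932 (0.782 to 1.11) in *Dspp*-/-. None of the 10 genes differed by 2-fold between the mutant libraries, where 0.798% of all genes were higher in *Dspp*+/- by that much and 0.852% lower. An interval above 1 was found for 3 of the 10 genes and for 34.6% of all genes, and one below 1 for 2 of the 10 and for 25.5%. These counts are near the shares over all genes and do not set the 10 genes apart. Scaled on housekeeping genes, *Aurka* was no longer higher in *Dspp*+/-, with 3 of the 10 genes above 1.

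The 10 genes split in the same way by the base composition of their transcripts. The 4 genes higher in *Dspp*+/- had a GC content of 51.4% to 56.0% in their longest transcript, and the 6 genes lower in it had 43.4% to 49.3%. Over all genes tested, the median log2 difference between *Dspp*+/- and *Dspp*-/- went from -0.12 in the lowest of 5 equal bins of GC content to 0.22 in the highest. Centred on the median of its own GC bin, a step chosen after seeing the data, *Plk1* went from 0.52 to 0.29, *Aurkb* from 0.38 to 0.25 and *Cdc20* from 0.21 to -0.016, while *Ccnb2* went from -0.29 to -0.33. *Top2a* changed sign as *Cdc20* did, from -0.058 to 0.063. Over all genes tested the same difference also went with transcript length, from a median of 0.11 in the shortest of 5 equal bins of the length of the longest transcript to -0.048 in the longest. The part of base composition and of length in these differences was not tested. Against WT, all 10 genes stayed higher in both mutant libraries after centring, and 9 of 10 were at least 2-fold higher in each, all but *Cdk1* (0.97) in *Dspp*+/- and *Aurka* (0.95) in *Dspp*-/-.

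**Figure D3:**
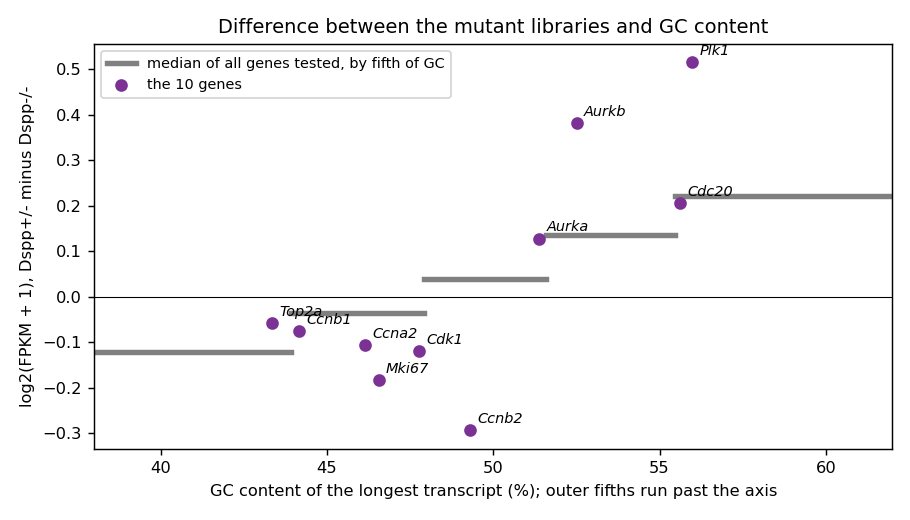
Difference in log2(FPKM + 1) between the *Dspp*+/- and *Dspp*-/- libraries against the GC content of the longest transcript, with 1 point per gene and grey bars for the median of all genes tested in each of 5 bins of GC content. The 4 genes above 0 have the highest GC content of the 10, and the grey bars climb from -0.12 to 0.22.

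Other genes of mitosis were compared in the same way, in lists chosen with earlier results of these data known, and 3 values in a row are those of WT, *Dspp*+/- and *Dspp*-/- in that order. Of the other mitotic kinases and their partners, all 14 in the table had a higher FPKM than WT in both mutant libraries, where 56.3% and 50.7% of all genes tested were higher in *Dspp*+/- and *Dspp*-/-. Of the 12 that averaged 1 FPKM or more, 5 were below 1 FPKM in WT and so were compared only through their mutant levels. Over the 7 others the median log2 difference was 0.90 and 0.86, and 2 were at least 2-fold higher in each mutant library. The partners of Aurora B were in the list, with *Cdca8* (borealin) at 0.592 FPKM in WT against 2.78 in *Dspp*+/- and 2.04 in *Dspp*-/- and *Incenp* at 2.49, 6.29 and 4.44 FPKM, both higher in *Dspp*+/- as *Aurkb* was. *Tpx2*, which activates Aurora A, had 2.36, 5.55 and 5.74 FPKM. Of the 12 averaging 1 FPKM or more, *Haspin* had the smallest log2(FPKM + 1) difference in *Dspp*+/-. This gene of a histone kinase of mitosis had 0.633, 1.18 and 1.39 FPKM. *Mastl*, which averaged less than 1 FPKM, differed less in *Dspp*+/-, with a fold of 1.21 (0.860 to 1.71). Its interval holds 1, and its direction there turns under scaling on housekeeping genes. Of 12 mitotic kinesins in the table, all 12 had a higher FPKM than WT in both mutant libraries. Of those 12, 10 averaged 1 FPKM or more, but 8 of these were below 1 FPKM in WT, so their count and median carry no weight. The 2 above it in WT were *Kif11*, the motor that pushes spindle poles apart, with 1.40, 5.82 and 6.61 FPKM, and *Kif20a*, a motor of cytokinesis, with 1.18, 2.45 and 2.06 FPKM.

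The anaphase-promoting complex itself differed little. Of 21 genes for its subunits, partners and the spindle checkpoint, 12 were higher and 9 lower than WT in each mutant library, with a median of 0.088 and 0.045. Scaled on housekeeping genes, the medians were -0.17 and -0.055, so its direction depends on the scaling, as that of *Anapc5* does. The most abundant subunit gene, *Anapc5*, had 45.2 FPKM in WT against 49.6 in *Dspp*+/- and 47.2 in *Dspp*-/-, and *Cdc16*, another subunit gene, had 21.6, 14.4 and 19.3 FPKM. *Ube2c*, the ubiquitin-conjugating enzyme that works with the complex in mitosis, stood apart from them with 1.96, 12.3 and 9.78 FPKM, a fold of 6.29 (5.12 to 7.81) in *Dspp*+/- with 4.998 (4.05 to 6.23) in *Dspp*-/-. The 1 other gene of the list past 2-fold, named here after its values were seen, was *Fbxo5*, which encodes an inhibitor of the complex, with 2.39, 6.58 and 4.397 FPKM and a log2 difference of 1.16 in *Dspp*+/- and 0.67 in *Dspp*-/-.

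Genes of earlier phases were divided. The list of DNA replication licensing genes was close to the 10 genes, with all 10 licensing genes of the list higher in both mutant libraries. Over the 8 genes with 1 FPKM or more in WT the median was 1.25 in *Dspp*+/- and 0.98 in *Dspp*-/-. The most changed of these on the log2 scale in *Dspp*+/- was *Mcm5* of the MCM helicase, at 2.56 FPKM in WT against 11.1 in *Dspp*+/- and 7.00 in *Dspp*-/-. In 8 of the 9 genes that averaged 1 FPKM or more the level was higher in *Dspp*+/- than in *Dspp*-/-, against 55.3% of all genes tested. This count was not taken under scaling on housekeeping genes, which moved the median of all genes in that comparison from 0.037 to -0.10. In the list of G1 and S cyclins and CDKs, 9 genes averaged 1 FPKM or more, among them *Ccnf*, a cyclin that peaks in G2. Their median was 0.34 in both mutant libraries. Of the 9, 6 were higher in *Dspp*+/- and 7 in *Dspp*-/-, against 56.3% and 50.7% of all genes tested. Scaled on housekeeping genes the medians were 0.097 and 0.24 with 5 of 9 higher in each. But 2 of the 9 were below 1 FPKM in WT, and over the 7 others the medians were 0.21 and 0.11. *Ccne1*, the cyclin of S phase entry, was higher with 0.427, 2.59 and 2.30 FPKM. The D cyclin gene *Ccnd1*, by contrast, had 8.57 FPKM in WT and 5.88 and 6.88 in the mutant libraries, and *Cdk4*, its partner, had 17.9, 15.5 and 12.6 FPKM. *Ccna1*, the A cyclin of the germ line, was listed at 0 in both mutant libraries and had only 4 fragments in WT (0.108 FPKM). The counting intervals of its folds against WT hold 1.

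The switches that act on CDK1 and the factors that transcribe these genes were compared too. *Cdc25b*, a phosphatase that turns CDK1 on, had 3.78 FPKM in WT against 8.89 in *Dspp*+/- and 9.41 in *Dspp*-/-, and *Wee1*, a kinase that holds it off, had 4.96, 5.51 and 5.88 FPKM, a difference in *Dspp*+/- that turns under scaling on housekeeping genes. Of the 4 genes compared in this switch, 1 was past 2-fold higher in each mutant library. Among 21 transcription factor genes of the cell cycle, 18 were higher than WT in *Dspp*+/- and 20 in *Dspp*-/-, with a median of 0.60 and 0.42. Of all genes tested, 56.3% and 50.7% were higher. Scaled on housekeeping genes, 14 were higher in *Dspp*+/- with a median of 0.32 and 18 in *Dspp*-/- with 0.35, and 3 of the 21 were below 1 FPKM in WT. The most abundant were *Tfdp1*, the partner of the E2F proteins, with 13.9, 21.7 and 21.6 FPKM, and *E2f4*, with 14.3, 23.5 and 18.6 FPKM. On the log2(FPKM + 1) scale *E2f2* differed most in *Dspp*+/-, with 1.70, 11.4 and 8.77 FPKM, while by plain fold *E2f8*, named after its values were seen, differed more, with 0.635, 5.36 and 4.35 FPKM. *E2f5*, a repressive E2F, was lower with 6.32, 4.25 and 4.92 FPKM. Of the CDK inhibitors, 2 of 7 were higher in *Dspp*+/- and 4 of 7 in *Dspp*-/-. Their median was -0.22 and 0.0031, and under scaling on housekeeping genes -0.49 with 1 of 7 higher and -0.11 with 3 of 7 higher. *Cdkn1a*, which encodes p21, had 59.0 FPKM in WT against 49.1 in *Dspp*+/- and 28.0 in *Dspp*-/-, a fold of 0.832 (0.797 to 0.869) and 0.474 (0.450 to 0.499), and *Cdkn1b*, which encodes p27, had 14.2, 16.2 and 17.3 FPKM, a difference that also turns in *Dspp*+/- under that scaling. At the ends of the list, *Cdkn2d*, an INK4 inhibitor of CDK4, had 8.25, 15.8 and 14.4 FPKM and *Cdkn2a* had 3.84, 1.19 and 1.76 FPKM.

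**Figure D4:**
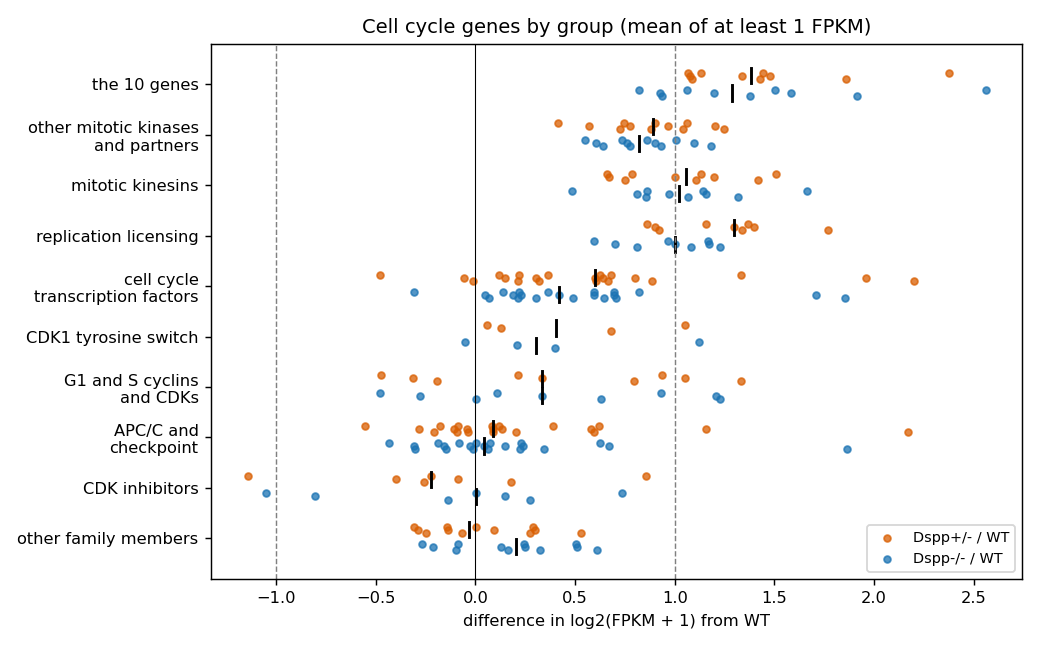
Difference in log2(FPKM + 1) from WT for cell cycle genes that averaged 1 FPKM or more, 1 point per gene and mutant library, in rows by group, with a black bar at the median and dashed lines at 2-fold. The 10 genes have medians of 1.38 and 1.29, and the APC/C list, the CDK inhibitors and other members of the same gene families lie around 0.

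Markers of blood-forming cells moved in the same direction as the 10 genes. The summed level of 12 erythroid precursor markers was 879 FPKM in WT against 3597 in *Dspp*+/- and 3447 in *Dspp*-/-, with 11 and 12 of 12 markers higher than in WT. For 11 neutrophil precursor markers the sum was 236, 1257 and 1224 FPKM, with 11 and 10 of 11 higher, and for 10 megakaryocyte markers it was 30.4, 145 and 157 FPKM, with 10 of 10 higher in both. For 12 markers of B cell precursors the sum was 27.9, 78.6 and 66.1 FPKM, with 9 and 11 of 12 higher, and *Vpreb2* was listed at 0 in WT and in *Dspp*-/-. The sum of the 10 genes differed from WT by 3.73 and 3.84 times and that of the erythroid markers by 4.09 and 3.92 times, so there were 35.3 FPKM of erythroid markers for each FPKM of the 10 genes in WT against 38.7 in *Dspp*+/- and 36.0 in *Dspp*-/-. For neutrophil markers the same quotient was 9.45, 13.5 and 12.8. A sum rests on its most abundant genes. The median log2 difference was 3.18 and 2.69 for erythroid and 2.33 and 2.22 for neutrophil markers, against 1.38 and 1.29 for the 10 genes. But 7 of the 12 erythroid and 1 of the 11 neutrophil markers were below 1 FPKM in WT. Those were compared only through their mutant levels. Over the 5 erythroid markers with 1 FPKM or more in WT the medians were 2.07 and 2.15. Over the 10 such neutrophil markers they were 2.24 and 2.27. The 7 stem and progenitor markers had a sum of 24.3, 27.6 and 29.3 FPKM, a ratio to WT of 1.13 and 1.20, of which the first falls to 0.924 under scaling on housekeeping genes.

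Markers of the skeletal cells went the other way. The summed level of 13 chondrocyte markers was 1790 FPKM in WT against 562 in *Dspp*+/- and 849 in *Dspp*-/-, with 12 and 11 of 13 lower, and *Matn1* was listed at 0 in *Dspp*+/-. The sum of 10 osteoblast markers was 10906, 2962 and 5783 FPKM and that of 7 osteoclast markers 1706, 566 and 946 FPKM, with all markers of both lists lower in both mutant libraries. These sums stood lower in *Dspp*+/- than in *Dspp*-/-, while the sum of the 10 genes, 92.9 and 95.8 FPKM, was nearly equal there. The sum of 10 skeletal muscle markers was 11227, 15172 and 12386 FPKM, with *Tnnc2* listed at 0 in WT and in *Dspp*-/-, and that of 7 endothelial markers 135, 150.3 and 147 FPKM. These are ratios to WT of 1.35 and 1.10 for muscle and 1.12 and 1.09 for endothelium, and the last list goes below WT in *Dspp*+/- under scaling on housekeeping genes. The part of the cell makeup of the pools in the levels of the 10 genes was not tested.

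**Figure D5:**
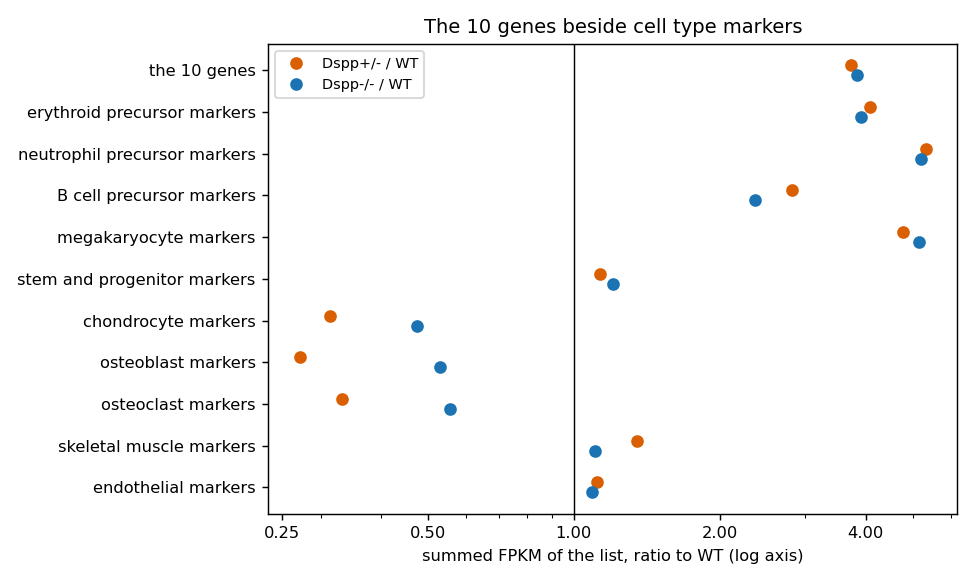
Summed FPKM of each list as a ratio to WT on a log axis, for the 10 genes and for markers of 10 cell types, with 1 point per mutant library. The sum of the 10 genes is at 3.73 and 3.84, the erythroid, neutrophil, megakaryocyte and B cell precursor sums lie between 2.37 and 5.33, the stem and progenitor sum at 1.13 and 1.20, and the chondrocyte, osteoblast and osteoclast sums below 1.

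Finally, the genes whose levels were most like those of the 10 genes were sought over the 3 libraries, by the smallest Euclidean distance of log2(FPKM + 1) from the mean of the 10 genes. The 5 nearest were *Gatm*, *Ptprc*, *Nup210*, *Mcm3* and *Vav1*, at distances of 0.17 to 0.24, where the 10 genes themselves lay 0.37 to 2.56 from their own mean. *Gatm* had 2.07 FPKM in WT against 7.96 in *Dspp*+/- and 6.99 in *Dspp*-/-, and *Ptprc*, which encodes the leukocyte antigen CD45, had 2.43, 7.92 and 8.90 FPKM. Distances over 3 libraries hold little information, and 17 genes were nearer to the mean than any of the 10.

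The promoter motifs of the 10 genes were also counted in the other lists. Both CHR and CCAAT letters were in the windows of 6 of 11 mitotic kinesins, 3 of 10 other mitotic kinases and partners, 1 of 8 licensing genes and 0 of 6 CDK inhibitors. Among the tested genes outside the 10, 533 had both motifs in a window. Past 2-fold higher than WT were 9.19% of these in *Dspp*+/- and also 9.19% in *Dspp*-/-, against 3.92% and 3.07% of the 9150 genes with a window and without both. Their median log2 difference was 0.14 and 0.12, against 0.052 and -0.0019, so most genes with both motifs differed little from WT.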

How the data were processed

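Condyle RNA of 4-month-old mice of the 3 genotypes was analysed from 1 table with 1 value per gene and genotype. Poly(A)-selected RNA was sequenced as read pairs by CapitalBio Technology. The authors deposited the values without naming their unit, and they were read as FPKM because FPKM times merged exon length (GENCODE M21, matched by identifier for 26641 of 26970 genes) was whole, within 0.05 of a fragment, in all 3 libraries for 98.2% of the matched genes. The 10 genes deviated by less than 0.001. The submitters' processing notes list FastQC 0.11.5, HISAT2 2.1.0, StringTie 1.3.3b and DESeq 1.28.0, and a human build, hg38, with no role given. The annotation and the filters are not given in the sources used here. Positions are those of the table, whose build it does not name, and 578 genes share both ends with GENCODE M21 (GRCm38). Promoters come from RefSeq, GRCm38.p6.

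Differences were taken on log2(FPKM + 1) over 13026 genes averaging 1 FPKM or more, with a threshold of 2-fold. Folds are ratios of FPKM with 95% Clopper-Pearson intervals from recovered fragments, and levels carry exact Poisson intervals. With 1 library per genotype, the Kruskal-Wallis test of the study could not be used and no p-value is given. A floor of 3 fragments was set, and all 10 genes were above it in every library. Recovery of depth and of fragments was tested on simulated data. The 10 genes and the lists were chosen with earlier results of these data known, and the list of other members of the gene families after the values of the 10 genes were seen. Genes named outside the 10 are, per cell cycle list, chosen among the 2 most abundant and those with the highest and lowest difference in Dspp+/-, the markers listed at 0, the defining markers, and the 5 genes nearest in level. Fbxo5, E2f8, Mastl, Ccnf and Top2b were named after their values were seen, Xist and Ddx3y as checks of sex. Software was scipy 1.17.1, pandas 2.3.3, numpy 2.4.6 and matplotlib 3.10.9 on Python 3.11.15.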

Additional observations from a re-analysis of the deposited data

How the results depend on the processing

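All 10 genes were higher than WT in both mutant libraries under the 5 scalings tried, with plain folds from 1.96 to 6.67 in Dspp+/- and from 1.99 to 7.58 in Dspp-/-. Scaling on 12 housekeeping genes used their geometric mean, which was 1.23 times that of WT in Dspp+/- and 1.09 times in Dspp-/-. Their sums were 1191 FPKM in WT against 1318 in Dspp+/- and 1227 in Dspp-/-. Log2 differences of single housekeeping genes from WT ran from -0.27 to 0.89 in Dspp+/- and from -0.56 to 0.57 in Dspp-/-. These genes were thus not steady themselves, which limits this scaling wherever it is used above. It moved the median of all genes in Dspp+/- from 0.058 to -0.18 and left 6 of the 10 genes at least 2-fold higher in Dspp+/-. The median of Dspp+/- against Dspp-/- came to -0.22, with Aurka no longer higher in Dspp+/-. The median log2 difference in Dspp+/- was 1.73 with a pseudocount of 0.1, 0.70 with 5 and 1.78 with none, and in Dspp-/- 1.61, 0.66 and 1.66. A pseudocount pulls low values together by construction. With a pseudocount of 5, 2 genes were at least 2-fold higher in each mutant library, and at a threshold of 4-fold, 1 gene was in each. Of genes averaging 5 FPKM or more, 5 of the 10 were left. All 5 were at least 2-fold higher in Dspp+/- and 4 in Dspp-/-, where the median was 1.59. Centring on GC content, chosen after seeing the data, gave medians of 1.35 and 1.31 and moved no count by over 1.5 times. The other 96 values stayed within 1.5 times for counts, or within bounds for medians. These bounds are medians of the interval bounds of the 10 genes and no interval of the median itself. Many of the 96 are counts that were 0 and stayed 0, which says little of how steady the results are. They are the genes 2-fold lower in each comparison and those 2-fold higher in Dspp+/- than in Dspp-/-. No paired analysis was possible because each genotype has 1 library, and leaving out a library was not possible for the same reason. Depth limited Plk1 most, at 78 fragments in WT.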

Other observations

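Other members of the same gene families, which act outside mitosis, were compared after the values of the 10 genes were seen. Of 15 such genes, 12 averaged 1 FPKM or more. Their log2 differences from WT had a median of -0.034 in Dspp+/- and 0.21 in Dspp-/-, with 6 of 12 and 8 of 12 higher and none past 2-fold. Top2b, the topoisomerase II gene that resting cells also express, had 9.90 FPKM in WT against 9.39 in Dspp+/- and 11.9 in Dspp-/-, a fold of 0.949 (0.903 to 0.998) and 1.20 (1.15 to 1.26), where the fold of Top2a was 4.53 and 4.73. In Dspp+/- the fold of Top2b goes above 1 where mitochondrially encoded genes are left out of the scaling, and the median of the list was -0.29 under scaling on housekeeping genes. Cdk5, a kinase best known from neurons, had 9.001, 7.07 and 7.32 FPKM. The cyclin genes Ccng1 and Ccni were the most abundant of the list, with 100.4, 145 and 154 FPKM and 94.9, 86.0 and 104 FPKM. Aurkc, the Aurora kinase of meiosis, was listed at 0 in WT and in Dspp-/- and had 3 fragments in Dspp+/-.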
